A study of Mus musculus with 20 samples.

Results

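The 8 AP-1 genes Fos, Fosb, Fosl1, Fosl2, Jun, Junb, Jund and Atf3 were read in every library of a mouse liver regeneration series. They were found by symbol, as the rows of the deposited table whose Ensembl identifiers carry those names, and all 8 were present among 54532 genes. The table held RNA sequencing values for 20 libraries of C57BL/6 origin, with 2 per group. The groups were hepatocyte organoids (Hep-Org), grown in Matrigel and passaged, hepatocytes isolated at 6, 12, 24, 48 and 72 h and 7, 14 and 21 d after removal of 70% of the liver (partial hepatectomy, PHx), and hepatocytes from undamaged liver. Replicate 2 of each PHx time came from a second submission of 8 libraries, whose labels name the liver but no cell type, and the other 12 libraries came from the first. No undamaged or Hep-Org library belonged to the second submission. Nothing in the labels ties the libraries of a group to different animals or cultures, so p-values measure the spread between these libraries, which may be technical.

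AP-1 is a dimer of basic leucine zipper (bZIP) proteins. Fos proteins bind DNA together with a partner such as a Jun protein, whereas Jun proteins can also pair with each other, and Atf3 pairs with Jun proteins or with itself. Several of these genes are immediate-early genes, whose transcription growth factors, cytokines and stress switch on through MAP kinases without new protein synthesis. Their induction in the first hours after PHx is a textbook feature of liver regeneration, and Jun is needed for normal hepatocyte proliferation in mice.

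Values are FPKM (fragments per kilobase of transcript, scaled to library size), a level per length, so that levels of different genes can be set side by side. Read numbers recovered from the FPKM put the depth at 13.7 to 41.4 M (mega) reads per library. The PHx and undamaged libraries carried hepatocyte markers such as Alb and Ttr, with 9 markers summing to 24211 to 79358 FPKM. In the Hep-Org libraries the same markers summed to 5142 and 1222 FPKM and all 9 were called lower than in undamaged hepatocytes. All 5 cholangiocyte markers were called higher there, summing to 4444 and 2729 FPKM in Hep-Org and to 8.06 and 335 FPKM in undamaged hepatocytes. The organoids are therefore called Hep-Org, by their label, and not hepatocytes. The 2 undamaged libraries differed in markers of other cells: macrophage markers summed to 48.8 FPKM in replicate 1 and 1241 FPKM in replicate 2. Neutrophil markers summed to 0.655 and 121 FPKM in the same order. In bulk libraries, fewer cells of a type and less RNA per cell cannot be told apart.

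The sequence just upstream of Fos, Jun and Junb, 3 members whose replicates lay far apart at PHx 12 h, is shown because the family is known for promoters that its own members and other bZIP proteins bind. Each line runs from 150 bases before the RefSeq start to the base before it, on the strand of the gene (RefSeq, GRCm38.p6), and capitals mark matches to the motifs searched. The Fos stretch is chr12:85473740-85473889 on the plus strand. The Jun stretch is chr4:95052223-95052372 and the Junb stretch is chr8:84978749-84978898, both on the minus strand.
Fos: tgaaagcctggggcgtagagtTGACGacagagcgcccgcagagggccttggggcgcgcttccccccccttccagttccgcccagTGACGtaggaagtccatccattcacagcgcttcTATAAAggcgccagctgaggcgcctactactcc
Jun: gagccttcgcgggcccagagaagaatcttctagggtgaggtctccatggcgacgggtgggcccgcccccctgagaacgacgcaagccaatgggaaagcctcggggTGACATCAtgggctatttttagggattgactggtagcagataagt
Junb: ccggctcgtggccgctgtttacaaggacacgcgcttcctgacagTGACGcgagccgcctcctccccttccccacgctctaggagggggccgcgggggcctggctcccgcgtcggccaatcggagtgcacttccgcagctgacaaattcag

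Counted from the start, the capitals in Fos are TGACG with its first base at -129 and again at -66, and TATAAA, the letters of a TATA box, at -33. In Jun they are TGACATCA at -45, and in Junb they are TGACG at -106. A window of 300 bases (250 before the start and 50 after it) was at hand for 7 members, not for Fosl1. Both strands of each were searched for 7 motifs, and their shares are over the 32851 windows of the same length in the mouse genome. TGACTCA, the classical AP-1 site, was in 0 of the 7 windows and in 5.20% of all windows. TGACGTCA, the cAMP response element, was in 0 of 7 and in 1.79% of all. TGACATCA, the Jun promoter variant of these sites, was in 1 of 7 (Jun) and in 3.62% of all. TGACG, the first letters of the cAMP response element, which any TGACGTCA also contains, was added after the windows had been read. It was in 4 of 7 windows (Fos, Fosb, Junb and Atf3) and in 20.8% of all. TATAAA was in 2 of 7 windows and in 13.6% of all. In Fos it lies at -33, whereas in Junb its first base is at 1, after the stretch shown and not upstream of the start. The CArG box of serum response factor and TTCNNNGAA, a STAT site, were in 0 of 7, against 1.63% and 8.30% of all. Sites farther than 250 bases before a start were not searched, so a 0 does not show that a gene lacks the site. The windows of Fosl2 and Jund held no match to any of the 7. The windows of Fosl2, Jund and Atf3 do not reach the GENCODE M21 start of the gene. For Jund the base before the RefSeq start is chr8:70697738, and the GENCODE gene starts at chr8:70698949. These are matches of letters and say nothing of binding.

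Most AP-1 message came from the Jun genes in every library. Jun, Junb and Jund together made up 75.3% to 93.6% of the summed FPKM of the 8 members, and the 4 Fos genes made up 4.08% to 22.5%. Junb alone held 62.7% and 64.4% of the sum at PHx 6 h, and 30.2% and 46.1% in undamaged hepatocytes. The summed level was 180 and 166 FPKM at PHx 6 h, against 69.9 and 58.8 FPKM in undamaged hepatocytes. In Hep-Org it was 132 and 72.1 FPKM. The lowest sum was 19.8 FPKM, in PHx 72 h replicate 2, where replicate 1 had 75.3 FPKM. Both 6 h libraries had higher sums than any other library, and the third highest was PHx 12 h replicate 2, with 140 FPKM, whose partner had 31.0 FPKM.

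**Figure D1:**
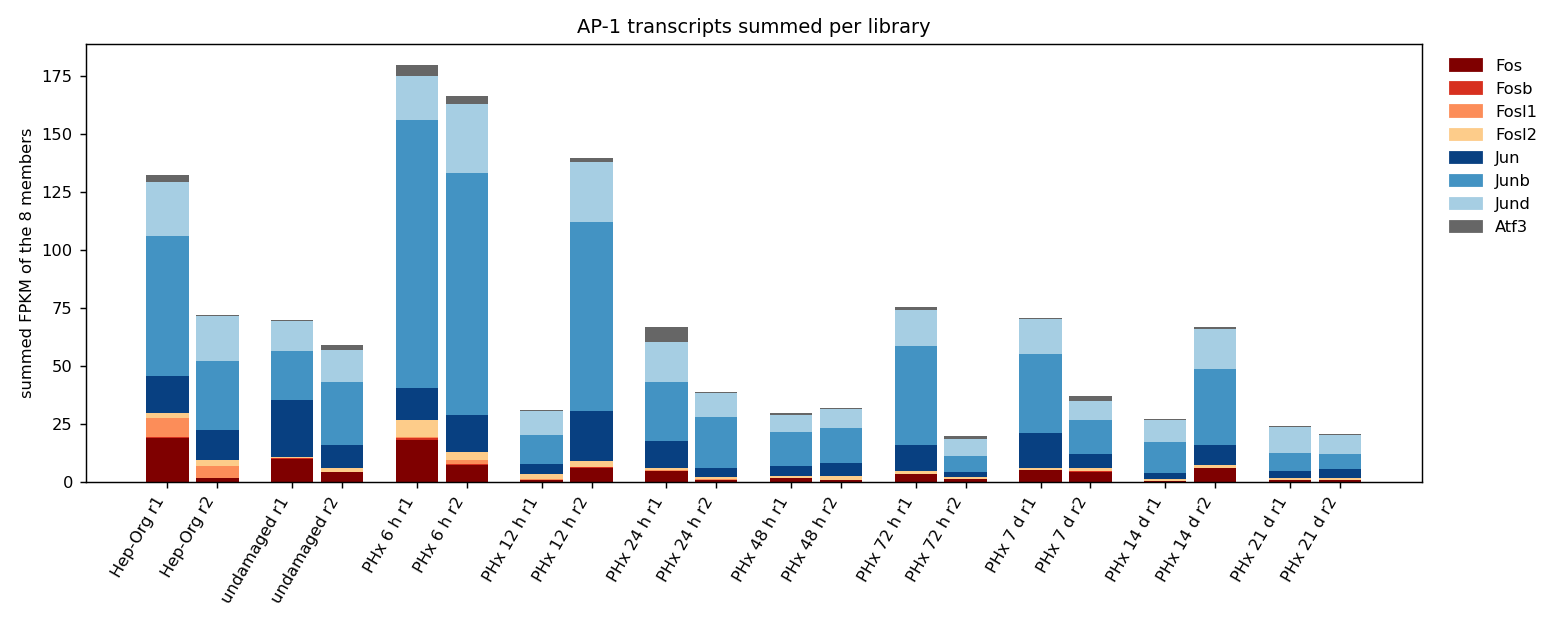
Summed FPKM of the 8 members (vertical axis) in each of the 20 libraries (horizontal axis, r1 and r2 for replicates 1 and 2), with 1 colour per gene, Fos genes in reds, Jun genes in blues and Atf3 in grey. The blue Jun part is the largest in every bar, and the sums reach 180 and 166 FPKM at PHx 6 h.

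Fosl2 was the member that changed at PHx 6 h in the comparison with undamaged hepatocytes. Fosl2 (ENSMUSG00000029135, chr5:32135801-32157842, plus strand, GRCm38) encodes FRA2, a Fos protein without the strong activation domain of FOS. Its level was 7.32 and 3.76 FPKM at PHx 6 h, against 0.524 and 1.62 FPKM in undamaged hepatocytes, with no overlap. The 12 h libraries came next among PHx times, with 2.17 and 2.37 FPKM, and the 12 libraries of later times lay between 0.625 and 1.56 FPKM. In the order of group means, PHx 6 h, Hep-Org and PHx 12 h came first, each apart from the next group in its libraries, and the neighbours below overlapped. On log2(FPKM + 1), Fosl2 was higher at PHx 6 h than in undamaged hepatocytes by 1.68 (SE 0.31, limma with Benjamini-Hochberg adjusted p = 0.0066). It passed the call rule, an adjusted p under 0.05 and a log2 difference of at least 1, and was the only one of the 7 tested members to do so. Of all 13162 genes tested, 4.62% were called higher in that comparison and 6.29% lower. With the first submission alone the difference was 2.06 with an adjusted p of 0.089, and with every library brought to the same FPKM sum it was 1.70 with an adjusted p of 0.058. Without PHx 6 h replicate 1 it was 1.19 with an adjusted p of 0.077, so that the call rests on that library.

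Fosl2 also differed among the 8 PHx times. Its fitted means spanned 1.88 on the log2 scale (limma moderated F, Benjamini-Hochberg adjusted p = 0.014), and 9.51% of all genes tested were called in the same test. Among the other 6 tested members no span was called, although that of Junb was 3.80 (adjusted p = 0.16). Against PHx 14 and 21 d, a comparison that holds 4 libraries and both submissions on the later side, Fosl2 was higher at PHx 6 h by 1.82 (SE 0.26, limma adjusted p = 0.00084). The 14 d libraries had 0.705 and 1.04 FPKM and the 21 d libraries had 0.791 and 0.625 FPKM. This call held with each library left out in turn, with differences of 1.38 to 2.25, and was lost with the first submission alone (2.25, adjusted p = 0.068). The call over the 8 times was lost without PHx 6 h replicate 1, where the span was 1.45 (adjusted p = 0.085), with the first submission alone, with no filter on low values and with the same FPKM sum.

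Junb had the highest level of the family at PHx 6 h. Junb (ENSMUSG00000052837, chr8:84974484-84978718, minus strand) encodes JUNB, a Jun protein that activates less strongly than JUN and can hold it back when the 2 pair. Its level was 116 and 104 FPKM at PHx 6 h, against 21.1 and 27.1 FPKM in undamaged hepatocytes, and no library of any other group reached it. At 12 h the replicates parted, with 12.6 and 81.5 FPKM. Prdx2, which shares 173 of the 2301 exon bases of Junb on the other strand, had 8.63 and 26.5 FPKM at PHx 6 h, against 24.9 and 21.1 FPKM in undamaged hepatocytes. For Junb, the 24 h libraries had 25.6 and 22.1 FPKM and the 48 h libraries had 14.7 and 15.2 FPKM. At 21 d the level was 7.50 and 6.48 FPKM, below both undamaged libraries. The difference between PHx 6 h and undamaged hepatocytes was 2.17 (SE 0.89) on the log2 scale and did not pass the test (limma adjusted p = 0.12). It was 2.36 and called without PHx 12 h replicate 1 or without PHx 12 h replicate 2 (adjusted p = 0.046 in both). Against PHx 14 and 21 d, where the 4 libraries ranged from 6.48 to 32.7 FPKM, it was 3.07 (SE 0.75) and passed (limma adjusted p = 0.011). In that comparison 8.33% of all genes were called higher and 7.54% lower, and of the 7 tested members 2 were called higher, Junb and Fosl2, and 0 lower. The Junb call was lost without PHx 6 h replicate 1 (3.01, adjusted p = 0.076), without PHx 6 h replicate 2 (3.13, adjusted p = 0.052) and with the first submission alone (3.41, adjusted p = 0.064).

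**Figure D2:**
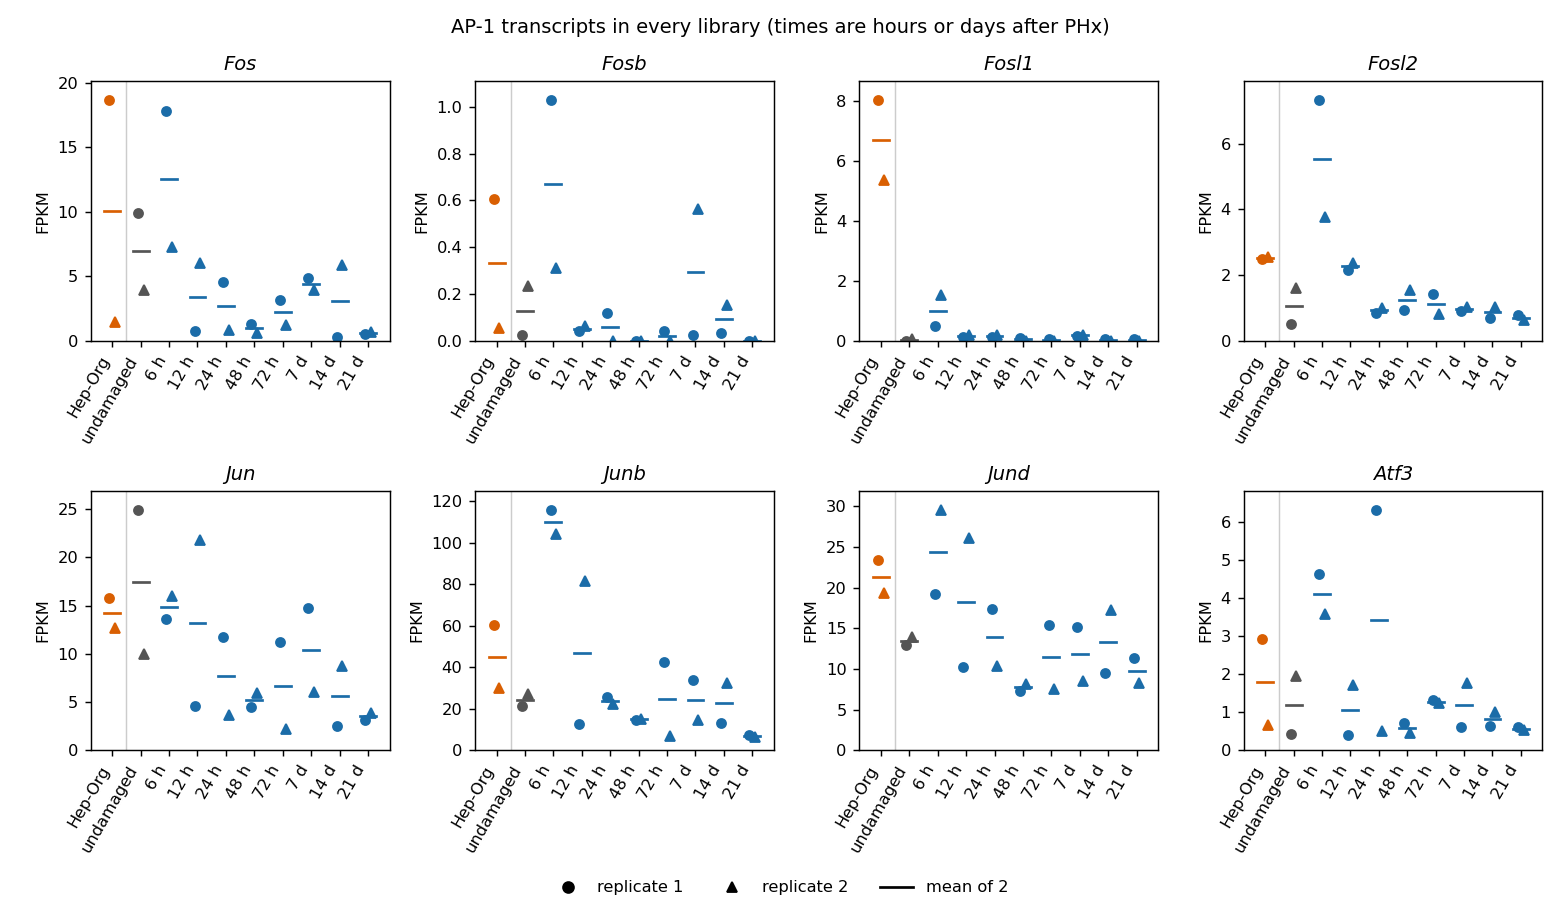
FPKM (vertical axis, a separate linear scale per gene) of each member in Hep-Org, undamaged hepatocytes and the libraries at 6 h to 21 d after PHx. Circles are replicate 1, triangles are replicate 2 and a line marks their mean. Fosl1 stands highest in Hep-Org, Fosl2 and Junb stand highest at 6 h, and the replicates of Fos, Jun and Junb lie far apart at 12 h.

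Fos (ENSMUSG00000021250, chr12:85473890-85477273, plus strand) is the founding member and a classical immediate-early gene. It had 17.8 and 7.24 FPKM at PHx 6 h, against 9.91 and 3.95 FPKM in undamaged hepatocytes. These libraries overlapped. The PHx libraries after 12 h lay between 0.288 and 5.85 FPKM, with a median of 1.28 FPKM. The difference between PHx 6 h and undamaged hepatocytes was 0.76 (SE 1.06, limma adjusted p = 0.68), and that between PHx 6 h and PHx 14 and 21 d was 2.50 (SE 0.89, limma adjusted p = 0.058). The second was called with no term for submission (adjusted p = 0.045), without PHx 14 d replicate 2 (3.19, adjusted p = 0.026) and without either Hep-Org library (2.50, adjusted p = 0.033 and 0.034). No neighbouring groups in the order of Fos means were apart in their libraries.

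Fosb (ENSMUSG00000003545, chr7:19302696-19310051, minus strand), a close relative of Fos that is usually low outside stimulated cells, was near the limit of these libraries. It was listed at 0 in 6 of 20 libraries and reached 1 FPKM only in PHx 6 h replicate 1, with 1.03 FPKM, where replicate 2 had 0.311 FPKM. The undamaged libraries had 0.0234 and 0.236 FPKM. It did not pass the filter on low values (1 FPKM in at least 2 libraries) and was not tested.

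Fosl1 (ENSMUSG00000024912, chr19:5447547-5455946, plus strand) encodes FRA1, the other Fos protein without a strong activation domain, which is known from migrating and cultured epithelial cells. It had 0.481 and 1.53 FPKM at PHx 6 h, from 16 and 70 reads, against 0 and 0.0538 FPKM in undamaged hepatocytes, from 0 and 1 read. The other 14 PHx libraries had at most 0.206 FPKM, from at most 11 reads. The difference between PHx 6 h and undamaged hepatocytes was 0.88 (SE 0.26), short of the size the call rule asks for. With a pseudocount of 0.5 in place of 1 it was 1.39 and with 0.1 it was 3.04, and without PHx 6 h replicate 1 it was 1.34. Fosl1 passed the filter only through the groups where it was high, 3 libraries in all. Some difference was thus built into its selection, and these differences are given as a description without a p. In GENCODE M21, Ccdc85b on the other strand shares 1163 of the 2033 exon bases of Fosl1, and the strand setting of the counting is not stated. Ccdc85b had 16.5 and 23.8 FPKM at PHx 6 h, against 4.81 and 11.8 FPKM in undamaged hepatocytes. Its highest level, 25.1 FPKM in PHx 12 h replicate 2, stood beside 0.206 FPKM of Fosl1.

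Jun, Jund and Atf3 were not called at PHx 6 h, either against undamaged hepatocytes or against PHx 14 and 21 d. Jun (ENSMUSG00000052684, chr4:95049034-95052222, minus strand) encodes the strongest activator of the Jun proteins. It had 13.6 and 16.0 FPKM at PHx 6 h, against 24.9 and 9.94 FPKM in undamaged hepatocytes (log2 difference -0.08, SE 0.83, limma adjusted p = 0.97). Undamaged replicate 1 had the highest Jun level of all 20 libraries. Jund (ENSMUSG00000071076, chr8:70698949-70700616, plus strand) encodes a Jun protein that most resting cells make. It had 19.2 and 29.6 FPKM at PHx 6 h, against 12.9 and 13.9 FPKM in undamaged hepatocytes, with no overlap and a difference of 0.79 (SE 0.49, limma adjusted p = 0.32). Atf3 (ENSMUSG00000026628, chr1:191170296-191218039, minus strand) encodes a stress-induced bZIP factor known mostly as a repressor. It had 4.62 and 3.57 FPKM at PHx 6 h, against 0.430 and 1.96 FPKM in undamaged hepatocytes, again with no overlap (1.36, SE 0.66, limma adjusted p = 0.19). Against PHx 14 and 21 d the differences were 1.59 (SE 0.55, limma adjusted p = 0.053) for Atf3, 1.61 (SE 0.70, adjusted p = 0.11) for Jun and 1.03 (SE 0.41, adjusted p = 0.088) for Jund. That of Atf3 was called with no term for submission (adjusted p = 0.041), with a filter of 4 libraries (adjusted p = 0.04997), without either undamaged library (adjusted p = 0.0497 and 0.0498), and without either PHx 24 h library (adjusted p = 0.015 in both). The antisense genes Junos and Gm11175 overlap Jun and Jund on the other strand, and reads in the shared bases cannot be told apart without a stated strand setting. Gm11175 was listed at 0 in all 20 libraries, and Junos had 0.0374 to 0.432 FPKM over the 20 libraries. The highest single Atf3 value was 6.32 FPKM, in PHx 24 h replicate 1, where replicate 2 had 0.515 FPKM.

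Between PHx 6 h and undamaged hepatocytes the libraries of 5 of the 7 tested members did not overlap and were higher at PHx 6 h, while 24.9% of all genes tested were so placed. The median difference of all 7 tested members was 0.88, which is the difference of Fosl1, and that over all genes was 0.02. Between PHx 6 h and PHx 14 and 21 d the libraries of 7 of 7 were higher without overlap, against 24.1% of all genes. The median was 1.61 for these members, against 0.01 for all genes. Both comparisons use the same 6 h libraries. Fosl1 is in both counts and passed the filter only through the groups where it was high. Markers of other cells differed as well. Summed erythroid markers at PHx 6 h were 7089 and 581 FPKM, against 39.1 and 32.1 FPKM in undamaged hepatocytes. Of the 5 tested erythroid markers 4 were called higher. Summed neutrophil markers were 826 and 113 FPKM at PHx 6 h, against 0.655 and 121 FPKM in undamaged hepatocytes, and overlapped. Of the 7 neutrophil markers limma called 0, and 4 had an unadjusted p under 0.05. Over all 13162 genes tested, 3885 had an unadjusted p under 0.05 in this comparison. Summed hepatocyte markers were 24211 and 36431 FPKM at PHx 6 h, against 68059 and 79358 FPKM in undamaged hepatocytes, with 2 of 9 called lower and a median difference of -1.35. Of the 4 tested lymphocyte markers 1 was called higher (median difference 1.19), and of the 9 stellate and mesenchymal markers 1 was called higher and 6 had an unadjusted p under 0.05. Of the 12 macrophage markers limma called 0, with a median difference of -0.36 and 0 at an unadjusted p under 0.05. Their part in the AP-1 levels was not tested.

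**Figure D3:**
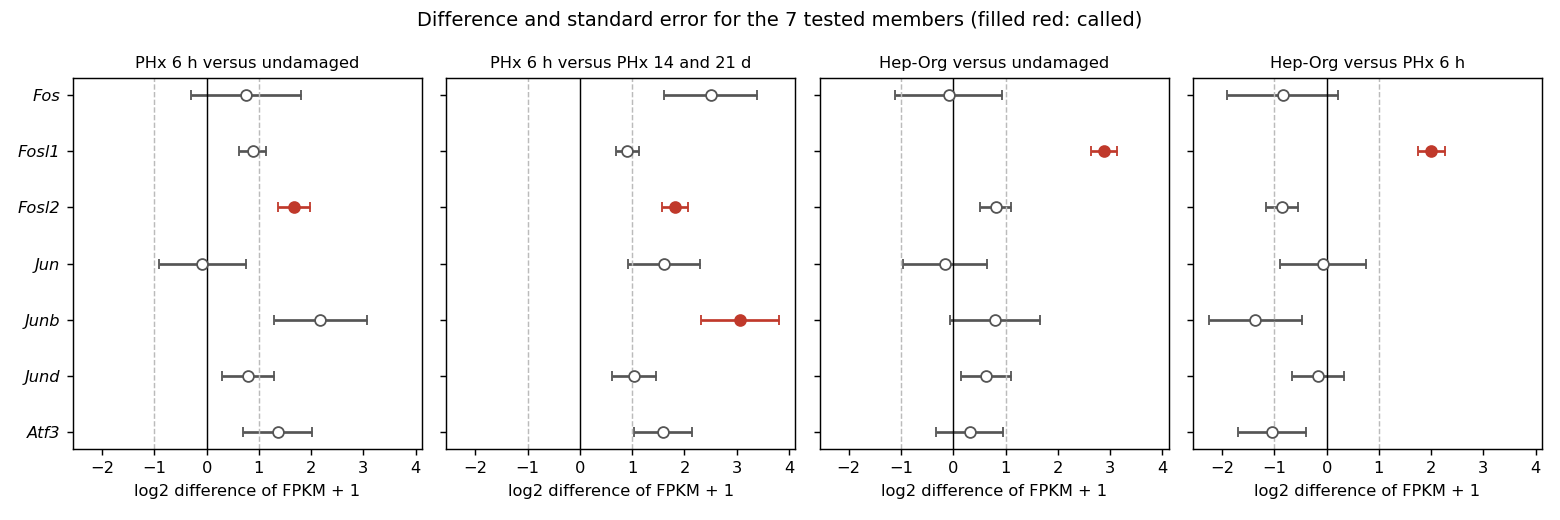
Log2 difference of FPKM + 1 (horizontal axis) with its standard error for the 7 tested members in 4 comparisons, with filled red points for those called and dashed lines at 1 and -1. Fosl2 is called at PHx 6 h against undamaged hepatocytes, Fosl2 and Junb against PHx 14 and 21 d, and Fosl1 in Hep-Org.

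At 12 h the 7 tested members had lower mean levels than at 6 h, none of them by a called difference. The differences between PHx 12 h and PHx 6 h ran from -1.83 to -0.48, and the libraries of 5 members were lower at 12 h without overlap, as were those of 14.9% of all genes. The libraries of Jun and Jund overlapped, and without PHx 12 h replicate 1 their differences turned to 0.69 and 0.22. None was called by limma (lowest adjusted p = 0.53), although 2 members, Fosl1 and Fosl2, had an unadjusted p under 0.05. Of these, Fosl1 had passed the filter only through the groups where it was high. Over all 13162 genes tested, 831 had an unadjusted p under 0.05. Of all genes, 0.0836% were called lower and 0.00760% higher in that comparison.

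Against undamaged hepatocytes, limma called 0 of the 7 tested members at each of the 7 times from 12 h to 21 d, and so did voom on recovered reads. An unadjusted p under 0.05 was found for Fosl2 at 12 h (1 of 7) and for Jun at 21 d (1 of 7). Over all 13162 genes tested it was found for 2626 at 12 h and for 1000 at 21 d. The background of calls was low as well. At 12 h, 0.935% of all genes were called higher and 2.15% lower. The shares higher and lower were 0.144% and 0.266% at 48 h, 0.365% and 0.524% at 72 h, and 0.236% and 0.190% at 7 d. At 24 h, 14 d and 21 d they were 0.00% in both directions. At 14 d all 7 differences from undamaged hepatocytes were below 0 (-1.50 to -0.02, lowest limma adjusted p = 0.71). So were all 7 at 21 d (-2.18 to -0.02, lowest limma adjusted p = 0.65). At 21 d the libraries of 4 members, Fos, Jun, Junb and Jund, were lower than both undamaged libraries without overlap, against 20.3% of all genes. The same members were so placed at 48 h, but the share over all genes was not counted there, so that placement is not read as a result.

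The members parted in how well replicates agreed. Fos, Jun, Junb and Jund had wide gaps in the same direction at PHx 12 h, 72 h and 14 d. At PHx 12 h, replicate 1 minus replicate 2 was -2.60 for Junb, -2.02 for Jun, -2.01 for Fos and -1.27 for Jund on the log2 scale, and -0.09 for Fosl2. The Junb gap was larger than that of 99.1% of all genes tested, and the median absolute gap over all genes was 0.35. The order turned at 72 h, where the gap was 2.50 for Junb, 1.92 for Jun, 0.90 for Fos and 0.95 for Jund. At 14 d it turned again, with -2.41 for Fos, -1.45 for Jun, -1.24 for Junb and -0.80 for Jund. Over the 10 groups, Junb and Jund had gaps of the same sign in 9, Jun with Jund and Fos with Jun in 8 each, Fos with Junb and Jun with Junb in 7 each, and Fos with Jund in 6. Junb and Atf3 shared the sign in 8. The gaps of Fosl2 ran from -0.78 in undamaged hepatocytes to 0.81 at PHx 6 h, larger than those of 75.7% and 75.4% of all genes there, with -0.40 at 48 h and 0.40 at 72 h. The log2(FPKM + 1) scale narrows gaps at low levels. In undamaged hepatocytes Fosl2 had 0.524 and 1.62 FPKM, whereas Jun had 24.9 and 9.94 FPKM and a gap of 1.24. The second library of each PHx time is of the second submission, so that replicate and submission cannot be told apart in those gaps.

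Depth and several marker sums differed between the 12 h replicates. Replicate 1 had 19.6 M reads and 6438 FPKM of summed erythroid markers, and replicate 2 had 41.4 M reads and 137 FPKM. In the same order neutrophil markers summed to 375 and 55.2 FPKM, cholangiocyte markers to 43.2 and 11.1 FPKM and macrophage markers to 166 and 266 FPKM. At PHx 6 h the replicates had 17.3 and 41.0 M reads and 7089 and 581 FPKM of erythroid markers. The gaps there were 0.15 for Junb, -0.22 for Jun, 1.19 for Fos and -0.60 for Jund. The part of these values in the 12 h gap was not tested. The largest gap of any member was that of Fos between the Hep-Org libraries, 18.6 FPKM in replicate 1 and 1.44 FPKM in replicate 2. It came to 3.01 on the log2 scale, larger than the gap of 99.8% of all genes, in a group where both libraries are of the first submission.

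**Figure D4:**
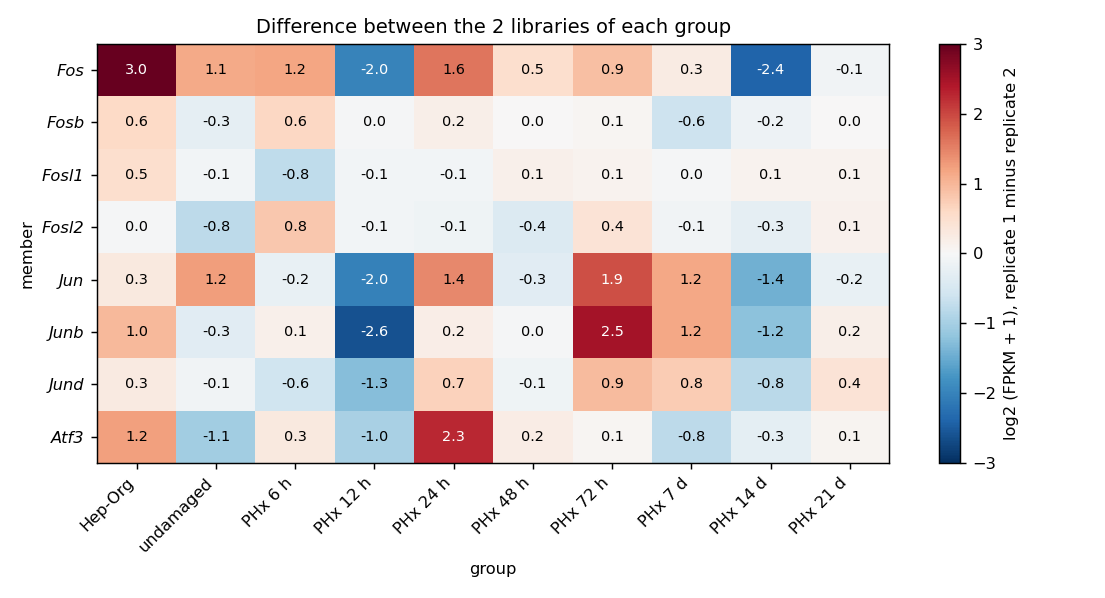
Log2(FPKM + 1) of replicate 1 minus replicate 2 for each member (rows) in each group (columns), in red where replicate 1 is higher and in blue where replicate 2 is higher. The Fos, Jun, Junb and Jund rows are blue at 12 h and 14 d and red at 72 h, and the largest gaps in the Fosl2 row are 0.81 at PHx 6 h and -0.78 in undamaged hepatocytes.

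In the organoids the member that stood out was Fosl1. It had 8.03 and 5.37 FPKM in Hep-Org, from 599 and 467 reads, against 0 and 0.0538 FPKM in undamaged hepatocytes. Ccdc85b, the gene on its other strand, had 17.9 and 15.4 FPKM in Hep-Org. The Hep-Org level of Fosl1 was also above the 0.481 and 1.53 FPKM of PHx 6 h, with no overlap. On the log2 scale Fosl1 was higher in Hep-Org than in undamaged hepatocytes by 2.89 (SE 0.25), where 10.3% of all genes were called higher and 13.2% lower. Against PHx 6 h it was higher by 2.003 (SE 0.26), where 10.6% of all genes were called higher and 13.0% lower. Against PHx 14 and 21 d it was higher by 2.91 (SE 0.23), where 11.4% were called higher and 13.4% lower. These comparisons share the same Hep-Org libraries. Fosl1 was the only tested member past the call rule in each of the 3. It reached 1 FPKM in both Hep-Org libraries and 1 other, so that the filter on low values took it in through the group where it was high, and these differences are given as a description without a p. Fosl1 made up 6.07% and 7.46% of the family's summed FPKM in Hep-Org, against 0% and 0.0916% in undamaged hepatocytes. Without each library in turn the difference from undamaged hepatocytes was 2.63 to 3.14. A filter that asks for 1 FPKM in 4 libraries removes Fosl1, which reached it in 3.

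No other Fos gene was called in Hep-Org against undamaged hepatocytes, PHx 6 h or PHx 14 and 21 d. Fosl2 had 2.48 and 2.55 FPKM in Hep-Org, against 0.524 and 1.62 FPKM in undamaged hepatocytes, with no overlap. The difference was 0.81 (SE 0.30, limma adjusted p = 0.055) and was not called. It was 1.21 and called without undamaged replicate 2 (adjusted p = 0.017), and 1.64 and called with voom on recovered reads (adjusted p = 0.022). The difference between Hep-Org and PHx 6 h was -0.86 (SE 0.31, limma adjusted p = 0.0497), short of the size asked for, and was -1.24 and called without PHx 6 h replicate 2 (adjusted p = 0.015). Against PHx 14 and 21 d Fosl2 was higher in Hep-Org by 0.96 (SE 0.27, limma adjusted p = 0.015), with no overlap and just short of that size. That difference was called with pseudocounts of 0.1 (1.56) and 0.5 (1.21), with voom (1.67), with the same FPKM sum (2.02), and without PHx 6 h replicate 1 or 2 (1.009 in both) or PHx 14 d replicate 2 (1.02). Fos had 18.6 and 1.44 FPKM in Hep-Org and 9.91 and 3.95 FPKM in undamaged hepatocytes, so that both groups overlapped. Fosb had 0.605 and 0.0566 FPKM in Hep-Org.

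The Jun genes and Atf3 were not called in Hep-Org. Junb had 60.3 and 30.0 FPKM in Hep-Org, above both undamaged libraries and below both 6 h libraries. Its difference from undamaged hepatocytes was 0.81 (SE 0.86, limma adjusted p = 0.51) and that from PHx 6 h was -1.37 (SE 0.89, limma adjusted p = 0.27). From PHx 14 and 21 d it differed by 1.70 (SE 0.78, limma adjusted p = 0.11), which was called without either PHx 72 h library (1.88, adjusted p = 0.042 in both) and with the first submission alone (1.99, adjusted p = 0.0497). Jund had 23.4 and 19.3 FPKM in Hep-Org, against 12.9 and 13.9 FPKM in undamaged hepatocytes, and Jun had 15.8 and 12.7 FPKM. Atf3 had 2.91 and 0.666 FPKM in Hep-Org, and overlapped undamaged hepatocytes. Between Hep-Org and undamaged hepatocytes, the libraries of 4 of the 7 tested members were higher without overlap, as were those of 33.9% of all genes. Fosl1, which passed the filter only through the groups where it was high, is among these members. The Hep-Org values depend on how libraries are scaled. FPKM summed to 184765 and 167676 in Hep-Org, against 469342 and 988797 in undamaged hepatocytes. With every library brought to the same sum the median difference over all genes was 1.29. Under that scaling 5 of 8 tested members were called higher, as were 8286 of all 14385 genes tested. Relative to that median, the Fos difference of 1.49 and the Jun difference of 1.68 under that scaling were small, while that of Fosl1 was 4.27.

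The genes around AP-1 were read from lists chosen with earlier results of these data known, and no list was tested as a set. Among other bZIP genes, which can pair with AP-1 proteins or share their sites, 2 of 23 tested were called higher and 1 lower at PHx 6 h against undamaged hepatocytes, where 4.62% of all genes were called higher and 6.29% lower. The count of 1 lower is near that share. Cebpd, an acute-phase activator, had 15.8 ± 0.563 FPKM at PHx 6 h and 2.42 ± 2.37 FPKM in undamaged hepatocytes (SD, n = 2 each). Maff, a small Maf protein, had 3.51 ± 0.00793 and 0.542 ± 0.235 FPKM in the same order, and Atf6, a sensor of unfolded proteins, was lower with 4.14 ± 0.106 and 10.4 ± 1.42 FPKM. In Hep-Org against undamaged hepatocytes 2 of 23 were called higher and 5 lower, against 10.3% higher and 13.2% lower over all genes. Maff (9.61 ± 0.375 FPKM in Hep-Org) and Nfe2l2, the regulator of antioxidant genes (46.7 ± 7.08 FPKM in Hep-Org and 11.8 ± 0.252 FPKM in undamaged hepatocytes), were higher.

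Among the genes upstream of AP-1 and the early genes beside it, most calls at PHx 6 h were of early genes. Of 22 tested genes of the MAP kinase cascade, 1 was called higher and 0 lower at PHx 6 h against undamaged hepatocytes by limma, with 6 at an unadjusted p under 0.05. The share is near the 4.62% of all genes called higher. The gene was Map3k8, with 3.02 ± 1.76 FPKM at PHx 6 h and 0.795 ± 0.895 FPKM in undamaged hepatocytes. Of 16 tested phosphatases and feedback genes, 0 were called by limma and 6 had an unadjusted p under 0.05. Over all 13162 genes tested, 3885 had such a p in that comparison, so neither count of 6 is read as a result. Of 8 tested genes of the ternary complex and serum response factor group, 1 was called higher, the CREB coactivator Crtc2. Of 25 other immediate-early genes, 11 were called higher and 0 lower, against 4.62% and 6.29% of all genes, with a median difference of 1.49. Plk3, a stress kinase, had 126 ± 14.6 FPKM at PHx 6 h and 16.2 ± 0.775 FPKM in undamaged hepatocytes. Ier3, an early gene tied to cell survival, had 25.3 ± 19.04 and 0.371 ± 0.280 FPKM in the same order.

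In Hep-Org against undamaged hepatocytes, where 10.3% of all genes were called higher and 13.2% lower, 4 of 22 MAP kinase cascade genes were called higher and 0 lower. Mapk3, which encodes the kinase ERK1, had 44.6 ± 6.92 FPKM in Hep-Org and 7.41 ± 0.224 FPKM in undamaged hepatocytes. Among the phosphatases and feedback genes 6 of 16 were called higher and 1 lower, among them Dusp4, an inhibitor of ERK, with 10.5 ± 2.17 FPKM in Hep-Org and 0.844 ± 0.0865 FPKM in undamaged hepatocytes. Of the other immediate-early genes, 7 of 25 were called higher and 1 lower. Myc had 14.5 ± 1.998 FPKM in Hep-Org, against a mean of 1.45 FPKM in undamaged hepatocytes, while Plk3 was the one lower, with 3.07 ± 0.786 FPKM in Hep-Org.

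Genes known as AP-1 regulated were called higher for 8 of 40 tested at PHx 6 h and for 21 of 40 in Hep-Org, each against undamaged hepatocytes, with 0 and 1 called lower. Over all genes 4.62% were called higher at PHx 6 h and 10.3% in Hep-Org. The median difference was 1.10 at PHx 6 h and 2.29 in Hep-Org, against 0.02 and -0.03 over all genes. Among those leading at PHx 6 h were Plaur, the urokinase receptor, with 4.76 ± 2.696 FPKM at PHx 6 h and 0.434 ± 0.429 FPKM in undamaged hepatocytes, and S100a6. In Hep-Org they were Itga2, a collagen receptor subunit, with 23.1 ± 10.7 FPKM in Hep-Org and 0.0262 ± 0.0177 FPKM in undamaged hepatocytes, Cdkn2a, the gene of a cell cycle inhibitor, and Mmp7, a matrix protease. The list holds Krt19 and Spp1, which are also cholangiocyte markers. The part of cholangiocyte marker expression in the Hep-Org count was not tested.

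The genes whose levels were most like those of each member over the 20 libraries are given as a description, with Pearson's r of log2(FPKM + 1) over 6271 genes compared. The libraries of a group share their treatment, and depth and submission differ between libraries. For Fosl2 these were Pgs1 (r = 0.95), Fbf1 (r = 0.94) and Sbno2 (r = 0.93), all highest at PHx 6 h. For Fosl1 they were Etv4 (r = 0.98), Smim3 (r = 0.98) and Itpr3 (r = 0.97), all highest in Hep-Org. Fos and Jun had Btg2, an antiproliferative early gene, as the most alike (r = 0.80 for Fos and 0.81 for Jun), followed for Fos by Ier2 (r = 0.76) and Gdf15 (r = 0.72) and for Jun by Dusp1 (r = 0.74) and Snora31 (r = 0.74). For Junb the genes were Ppp1r15a (r = 0.86), Otud5 (r = 0.85) and Ppie (r = 0.85). Jund was most like Pfdn2 (r = 0.86), Rpl36 (r = 0.85) and Rps19bp1 (r = 0.84), and Atf3 like Krt18 (r = 0.76), Gadd45b (r = 0.75) and Prkab1 (r = 0.74).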

How the data were processed

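RNA was extracted with TRIzol or a column kit, per the labels' protocols. HISAT2 2.0.5 and the build mm10 are named in the submitters' processing notes, and the authors deposited 1 table of FPKM for 20 libraries. How reads were counted and filtered, with which annotation and strand setting, is not given in the sources used here. The column of undamaged replicate 1 is spelled unlike its library name and was matched by elimination. The members and lists were chosen with earlier results of these data known.

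Symbols, positions and exon lengths came from GENCODE M21. FPKM times exon length fell on whole multiples of 1 step in each library (whole within 0.05 reads for 97.9% to 98.7% of values up to 20 reads), which gave read numbers. These reads were 0.478 to 1.94 times the library size that the step implies, so the deposited FPKM were taken as scaled between libraries in a way that is not stated. For Fosl1 the steps implied a length of 1707 bases, not the annotated 2033, and its reads were recovered with the implied length.

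Genes with at least 1 FPKM in at least 2 libraries were tested (13162) on log2(FPKM + 1), a scale that understates changes of low genes. limma 3.58.1 in R 4.3.3 was fitted to all 20 libraries with a mean for each group, a submission term, a trend and robust moderation. Benjamini-Hochberg adjustment ran over all genes tested, and a call needed an adjusted p under 0.05 and a log2 difference of at least 1. The fit was tested on simulated data. For each tested member, 3 genes outside the family with the highest Pearson's r were named, and up to 3 called genes per list with the largest moderated t; some genes so chosen are not reported here. Alternatives were no term for submission, the first submission alone, pseudocounts of 0.1 and 0.5, no filter, a filter of 4 libraries, the same FPKM sum, median-of-ratios scaling, voom on recovered reads and leaving out each of the 20 libraries. Promoter windows were RefSeq's (GRCm38.p6).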

Additional observations from a re-analysis of the deposited data

Results flagged for a closer look

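Of the 7 tested members, 2 differed between times after PHx in at least 1 test of the difference itself. Fosl2 had fitted means that spanned 1.88 on the log2 scale over the 8 PHx times (limma moderated F with Benjamini-Hochberg adjustment). Fosl2 at PHx 6 h was above PHx 14 and 21 d by 1.82, and Junb was above them by 3.07. In each of these the 2 libraries of PHx 6 h were higher than all 4 libraries of PHx 14 and 21 d. The span of Junb over the 8 PHx times was not called (limma moderated F, adjusted p = 0.16). The losses of these calls under other settings, given above for Fosl2 and Junb, apply here too. With 2 libraries per group, a single library far from its group could not be looked for.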

How the results depend on the processing

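Each count of called members was recomputed under 9 other settings and with each of the 20 libraries left out. At PHx 6 h against undamaged hepatocytes the count of 1 (Fosl2) became 0 with the first submission alone and with the same FPKM sum, and 2 with pseudocounts of 0.1 and 0.5 and with voom, where Fosl1 was added. For PHx 6 h against PHx 14 and 21 d the count of 2 became 0 with the first submission alone. The term for submission is also a replicate block, since replicate 2 of each PHx time is the second submission. With no replicate block the count in that comparison was 4, with Fos (adjusted p = 0.045) and Atf3 (adjusted p = 0.041) added, and no other count of called members changed. Replicates with the same number did not deviate together: over 28 pairs of times the correlation of deviations ran from -0.381 to 0.472 and was over 0.1 in 4. The count over the PHx times (1) became 0 with the first submission alone, with no filter and with the same FPKM sum.

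In Hep-Org against undamaged hepatocytes the count of 1 (Fosl1) became 0 with the filter of 4 libraries, which removes Fosl1, 5 with the same FPKM sum and 2 with voom. Against PHx 6 h it became 0 with that filter and 2 with the same sum. Against PHx 14 and 21 d the count of 1 became 0 with that filter, 7 with the same sum, and 2 with the first submission alone, with pseudocounts of 0.1 and 0.5 and with voom. With the same sum, 8286 of 14385 genes tested were called higher in Hep-Org against undamaged hepatocytes. The counts over all genes were 8072 against PHx 6 h and 6669 against PHx 14 and 21 d. Bringing libraries to the same sum moved the median difference of all genes to 1.29 for Hep-Org against undamaged hepatocytes and to 1.27 against PHx 6 h. Differences that were negative then became positive: 1.49 for Fos and 1.68 for Jun against undamaged hepatocytes, and 0.70 for Fos, 0.57 for Fosl2, 1.69 for Jun, 0.47 for Junb, 1.64 for Jund and 0.22 for Atf3 against PHx 6 h. With the first submission alone the Jun and Jund differences between Hep-Org and PHx 6 h became 0.057 and 0.14.

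With 1 library left out, the count ran from 1 to 2 at PHx 6 h (with Junb added) and in Hep-Org (with Fosl2 added), each against undamaged hepatocytes, from 1 to 3 at PHx 6 h against PHx 14 and 21 d, from 1 to 2 in Hep-Org against PHx 6 h and against PHx 14 and 21 d, and from 0 to 1 over the PHx times. It stayed at 0 for the 7 later times against undamaged hepatocytes and for PHx 12 h against PHx 6 h. Leaving out 1 library turned the sign of 11 uncalled differences. At PHx 6 h against undamaged hepatocytes Fos ran from -0.014 to 1.35 and Jun from -0.70 to 0.54. In Hep-Org against undamaged hepatocytes Fos ran from -1.59 to 1.42, Jun from -0.77 to 0.47 and Atf3 from -0.31 to 0.93. In Hep-Org against PHx 6 h Fos ran from -2.34 to 0.66, Jun from -0.24 to 0.076 and Jund from -0.55 to 0.14. In Hep-Org against PHx 14 and 21 d Atf3 ran from -0.075 to 1.16, and for PHx 12 h against PHx 6 h Jun ran from -1.65 to 0.69 and Jund from -1.23 to 0.22. Where a left-out library leaves 1 in its group, that library is assumed to vary like the others. The cause of these changes was not tested.

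The second submission held no undamaged or Hep-Org library, and each group has 2 libraries. Fosb and, outside Hep-Org, Fosl1 rest on few reads. Fosl1 passed the filter only through the groups where it was high, so that its calls in the counts above are a description.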

Other observations

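The lists around AP-1 were also read at PHx 6 h against PHx 14 and 21 d, where 8.33% of all genes tested were called higher and 7.54% lower. Of 25 other immediate-early genes, 17 were called higher and 0 lower by limma. Plk3 had 126 ± 14.6 FPKM at PHx 6 h (SD, n = 2) and 6.96 ± 3.17 FPKM at PHx 14 and 21 d (SD, n = 4), and Csrnp1 had 16.7 ± 4.69 and 1.999 ± 0.961 FPKM in the same order. Among other bZIP genes, 6 of 23 were called higher and 0 lower. Ddit3, a stress factor that pairs with C/EBP proteins, had 15.7 ± 2.15 FPKM at PHx 6 h and 2.78 ± 0.921 FPKM at PHx 14 and 21 d. Atf4, the effector of the integrated stress response, had 100.1 ± 33.9 and 35.8 ± 12.0 FPKM in the same order.

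Of 16 tested phosphatases and feedback genes, 2 were called higher in that comparison, Dusp8 and Dusp5, with log2 differences of 1.04 and 1.75. In the MAP kinase cascade 2 of 22 were called higher, Map3k14 and Map3k8, and 1 lower. The counts of these lists are near the shares over all genes, 8.33% higher and 7.54% lower, and are not read as a result. Elk4, a partner of serum response factor at early gene promoters, had 8.69 ± 0.521 FPKM at PHx 6 h and 3.54 ± 0.537 FPKM at PHx 14 and 21 d and was called higher. Of 40 tested AP-1 regulated genes, 12 were called higher, Plaur and S100a6 among them, and 0 lower. The 6 h libraries in these counts are those in which erythroid markers summed to 7089 and 581 FPKM, and the part of other cells in the counts was not tested.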
